A study of Homo sapiens with 2 samples.

Results

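The genes described are the 9 proximal signaling kinases, adaptors and receptors of the T cell receptor (TCR) that were taken by their symbols from the 36601 genes of the expression matrices: the kinases LCK, FYN and ZAP70, the adaptors LAT and LCP2, the phosphatase PTPRC (CD45), and the surface receptors CD2, CD5 and CD6. All 9 were found in both libraries. The cells came from H1, an established human embryonic stem cell line, which was differentiated for 12 days toward hematopoiesis, enriched for CD34+ cells with magnetic beads and then grown on OP9-DLL4, a mouse stromal line that presents the Notch ligand DLL4, in medium with SCF, FLT3L and IL-7. CD7+ cells were sorted after 10 days and after 14 days of that co-culture. Each day is 1 droplet library of 3' ends, no genotype or agent separates the days, and a single stem cell line stands behind both. No test between days was therefore possible, and every interval given below is a 95% interval that covers counting error only.

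When a T cell or a developing thymocyte receives a signal through its TCR or pre-TCR, LCK phosphorylates the CD3 chains, ZAP70 docks on them, and ZAP70 in turn phosphorylates the scaffolds LAT and SLP-76, the product of LCP2, from which the calcium and Ras pathways branch. The phosphatase CD45 keeps LCK and FYN ready by removing an inhibitory phosphate. CD2 is an adhesion and costimulatory receptor, whereas CD5 and CD6 are related scavenger-type receptors that tune the strength of the TCR signal, CD5 mostly downward.

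Barcodes were kept where they held 1000 to 7000 genes and no more than 18% of their unique molecular identifiers (UMIs) were mitochondrial, and 12114 cells of day 10 and 8929 cells of day 14 remained, with a median of 16173.5 and 15029 UMIs. The kept cells of the libraries shared 29 barcode sequences. Cells were grouped by 1 gene each, so that a cell may belong to several groups. At day 10 there were 1285 CD34+ cells (at least 1 CD34 UMI), 1500 IGLL1-high cells (IGLL1, the surrogate light chain gene, at 2000 or more counts per 1000000 UMIs of the cell, CPM), 1496 CD8B+ cells (at least 1 UMI of the CD8 beta chain gene) and 162 GNLY-high cells (the granule gene GNLY at 2000 CPM or more). The CD34+ and IGLL1-high groups of day 10 shared 499 cells. Day 14 held 6392 CD8B+ and 1519 GNLY-high cells, of which 480 were both, while its 45 CD34+ and 15 IGLL1-high cells were too few for a level. Day 10 further held 1214 HLA-DRA-high cells (HLA-DRA at 1000 CPM or more), against 9 at day 14. Their 9 myeloid markers summed to 15731 CPM and their 6 T cell markers to 543 CPM, so they served as cells in which T cell genes should be low. In GNLY-high cells 7 NK cell markers summed to 14002 CPM at day 10 and 19148 CPM at day 14, beside 4501 and 4504 CPM of the T cell markers. Cells in none of these groups numbered 7165 and 1473 and are called other cells.

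On GRCh38, by their gene identifiers in GENCODE, LCK lies at chr1:32251244-32286165 on the plus strand and FYN at chr6:111660332-111873452 on the minus strand. ZAP70 lies at chr2:97713576-97739862 (plus), LAT at chr16:28984826-28990784 (plus) and LCP2 at chr5:170246233-170297815 (minus). PTPRC spans chr1:198638457-198757476 (plus) and CD2 chr1:116754430-116769229 (plus). CD6, at chr11:60971680-61020377, and CD5, at chr11:61102489-61127852, are neighbors on the plus strand with 82111 bases between them. LAT, LCP2 and PTPRC each overlap 1 gene of the opposite strand. The strand setting of the counting was not given in the sources used here, and whether reads of those partners were counted with theirs was not checked. Libraries of 3' ends cannot separate the isoforms of PTPRC or the promoters of LCK.

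Promoters were read for the genes whose levels moved together or apart, namely LCK, ZAP70 and LAT, which rose together across the groups, and FYN and CD2, which did not follow them. The sequences are the 250 bases before the RefSeq start (GRCh38.p14, coding strand, 5' to 3'), from a table that held 7 of the 9 genes, without CD5 and CD6. They lie at chr1:32251015-32251264 (LCK, +), chr2:97713326-97713575 (ZAP70, +), chr16:28984553-28984802 (LAT, +), chr6:111873453-111873702 (FYN, -) and chr1:116754180-116754429 (CD2, +). Capitals mark exact matches, on either strand, to the core letters TGTGGT of RUNX factors, CAGGTG of E-proteins, GGAAGT of ETS factors, AGATAA of GATA factors and CTTTGA of TCF7/LEF1.
LCK: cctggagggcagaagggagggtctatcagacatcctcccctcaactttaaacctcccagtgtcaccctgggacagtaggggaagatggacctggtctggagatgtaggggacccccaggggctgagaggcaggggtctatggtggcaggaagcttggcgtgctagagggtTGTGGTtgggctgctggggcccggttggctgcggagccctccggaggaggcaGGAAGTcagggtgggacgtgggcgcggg
ZAP70: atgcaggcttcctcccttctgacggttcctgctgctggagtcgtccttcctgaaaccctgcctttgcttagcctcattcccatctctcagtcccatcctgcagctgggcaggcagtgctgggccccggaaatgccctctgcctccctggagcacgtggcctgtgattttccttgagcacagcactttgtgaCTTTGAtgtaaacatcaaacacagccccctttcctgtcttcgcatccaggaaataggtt
LAT: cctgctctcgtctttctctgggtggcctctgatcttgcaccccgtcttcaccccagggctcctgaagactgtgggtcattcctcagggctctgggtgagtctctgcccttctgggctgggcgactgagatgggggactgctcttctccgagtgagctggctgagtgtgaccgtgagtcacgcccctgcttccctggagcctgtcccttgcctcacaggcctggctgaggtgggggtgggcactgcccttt
FYN: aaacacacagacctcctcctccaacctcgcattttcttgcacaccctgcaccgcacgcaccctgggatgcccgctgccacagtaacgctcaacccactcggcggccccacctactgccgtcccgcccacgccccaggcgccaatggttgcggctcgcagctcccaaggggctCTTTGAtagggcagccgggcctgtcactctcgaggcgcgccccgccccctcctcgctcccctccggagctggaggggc
CD2: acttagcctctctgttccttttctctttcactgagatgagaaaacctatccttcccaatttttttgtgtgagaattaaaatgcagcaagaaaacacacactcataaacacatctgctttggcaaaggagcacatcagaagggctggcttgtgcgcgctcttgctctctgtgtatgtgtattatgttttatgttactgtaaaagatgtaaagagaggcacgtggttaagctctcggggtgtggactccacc
The LCK window held the RUNX letters at -80 and the ETS letters at -28 from the start. It lies at the 5' end of the 34922-base gene, and any LCK promoter further inside the gene was not read. The TCF7/LEF1 letters stood at -59 in ZAP70 and at -78 in FYN. No searched letters were found in the windows of LAT and CD2. Of the genes not printed, LCP2 held the ETS letters at -78 and PTPRC held them at -99 and, reversed, at -57. Of all 35116 promoters given there, 11.0% held the RUNX letters, 17.5% the E-protein letters, 19.5% the ETS letters, 9.17% the GATA letters and 11.2% the TCF7/LEF1 letters, so that such matches are common, and they describe letters, not bound sites.

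LCK, the kinase that starts the cascade, climbed through the day 10 groups and was highest in CD8B+ cells of day 14. Its level was 93.9 CPM in CD34+, 154 CPM in IGLL1-high and 302 CPM in CD8B+ cells of day 10, and 402 CPM in CD8B+ cells of day 14. The Poisson intervals of these 4 levels did not overlap. GNLY-high cells stood at 333 CPM (304 to 364) at day 10 and 331 CPM (323 to 339) at day 14, beside other cells of day 14 at 344 CPM (336 to 352), and these 3 intervals overlapped. Other cells of day 10 carried 275 CPM (272 to 278) and HLA-DRA-high cells 34.9 CPM. With every cell thinned to 5000 UMIs, so that depth was equal, an LCK UMI was found in 28.9% of CD34+, 45.6% of IGLL1-high and 75.3% of CD8B+ cells of day 10, in 85.2% of CD8B+ cells of day 14, and in 7.12% (5.73 to 8.73) of HLA-DRA-high cells.

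ZAP70, the kinase recruited to phosphorylated CD3 chains, followed the same order at a lower count. It rose from 13.7 CPM (12.3 to 15.2) in CD34+ to 23.1 CPM (21.4 to 24.8) in IGLL1-high and 57.7 CPM (55.0 to 60.6) in CD8B+ cells of day 10, and stood at 78.2 CPM (76.6 to 79.8) in CD8B+ cells of day 14. At 36.9 CPM (27.6 to 48.3), GNLY-high cells of day 10 were below CD8B+ cells of that day. Other cells of day 10 stood at 49.1 CPM (47.8 to 50.3). GNLY-high and other cells of day 14, at 68.6 and 67.4 CPM, did not differ beyond counting error. The thinned share of cells with a ZAP70 UMI was 5.74% in CD34+, 9.52% in IGLL1-high and 23.7% in CD8B+ cells of day 10, 31.8% in CD8B+ cells of day 14, and 1.59% in HLA-DRA-high cells.

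FYN, the Src-family kinase closest to LCK, had another pattern. At day 10 it stayed between 26.3 CPM in IGLL1-high and 34.7 CPM in HLA-DRA-high cells in each group except GNLY-high cells, which reached 94.0 CPM (78.8 to 111). At day 14 it was 63.5 CPM in CD8B+, 79.8 CPM in other and 112 CPM (108 to 117) in GNLY-high cells. The high FYN level thus lay with GNLY-high cells on both days, and all 3 groups of day 14 were above the remaining groups of day 10. FYN is also known in myeloid cells, so its level in HLA-DRA-high cells is not a background.

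**Figure D1:**
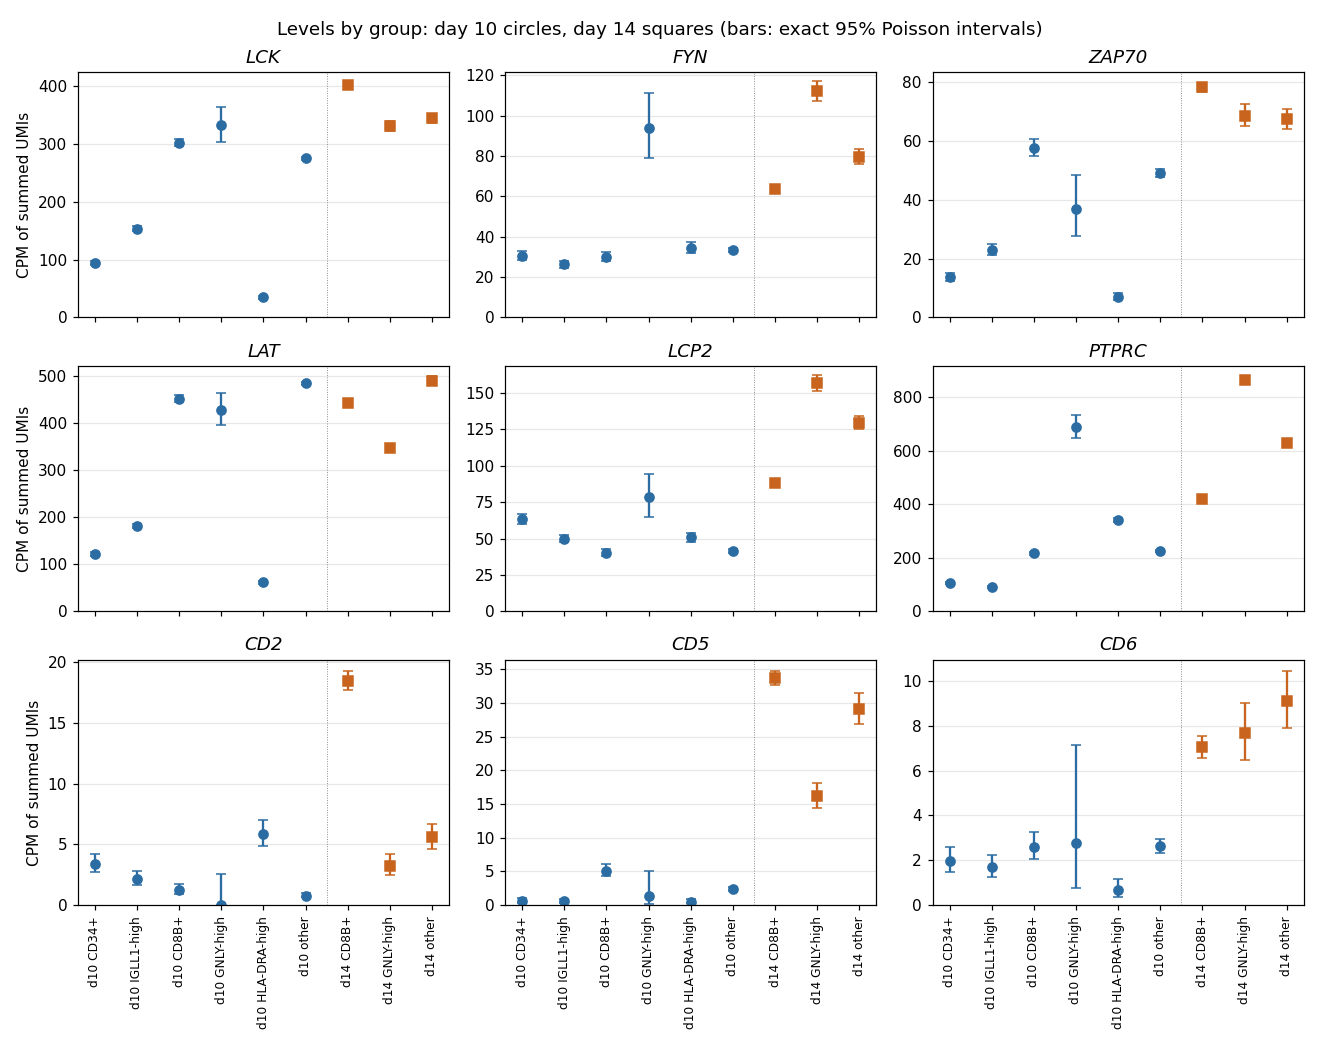
Level of each of the 9 genes (CPM of summed UMIs, linear axes that start at 0 and differ between panels) in 6 groups of day 10 (circles) and 3 groups of day 14 (squares), with exact 95% Poisson intervals as bars. LCK, ZAP70 and LAT climb from CD34+ to CD8B+ cells of day 10, FYN and PTPRC peak in GNLY-high cells, and CD2, CD5 and CD6 stay below 6 CPM at day 10.

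The adaptors LAT and LCP2 moved in opposite directions from CD34+ over IGLL1-high to CD8B+ cells of day 10. LAT, the membrane scaffold, was at 123 CPM in CD34+, 181 CPM in IGLL1-high and 452 CPM in CD8B+ cells, whereas HLA-DRA-high cells carried 61.6 CPM. LCP2, the cytosolic scaffold, was at 63.3 CPM (60.3 to 66.5) in CD34+, 49.8 CPM (47.4 to 52.4) in IGLL1-high and 40.4 CPM (38.1 to 42.8) in CD8B+ cells. These LCP2 levels went down across the groups in which LAT went up, with intervals that did not overlap. GNLY-high cells of day 10 did not follow that order, with LCP2 at 78.7 CPM (64.9 to 94.6) and LAT at 428 CPM (395 to 464). LCP2 in HLA-DRA-high cells was at 50.9 CPM. By day 14 LAT in CD8B+ cells was at 443 CPM (439 to 446), a little below the 452 CPM of day 10 (444 to 460), while LCP2 was at 88.3 CPM. GNLY-high cells of day 14 had the highest LCP2 level, 157 CPM, and the lowest LAT level of that day, 347 CPM. Other cells stood at 484 CPM of LAT at day 10 and 491 CPM at day 14, and at 41.5 and 130 CPM of LCP2.

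PTPRC, which encodes the phosphatase CD45 of all nucleated blood cells, was lowest in IGLL1-high cells, at 89.4 CPM (86.1 to 92.9), and in CD34+ cells, at 106 CPM (102 to 110). It was 217 CPM in CD8B+ cells of day 10 and 418 CPM in those of day 14, beside 226 and 626 CPM in other cells. GNLY-high cells were highest, with 689 CPM (646 to 733) at day 10 and 863 CPM (850 to 877) at day 14. The HLA-DRA-high cells stood at 341 CPM, above the CD8B+ cells of the same library.

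CD2, CD5 and CD6 were scarce at day 10, and at day 14 CD2 was highest in CD8B+ cells. It stood at 18.5 CPM (17.7 to 19.3) in CD8B+ cells of day 14, against 3.26 CPM in GNLY-high and 5.59 CPM in other cells of that day. At day 10 CD2 was at 3.39 CPM in CD34+ (86 UMIs), 2.19 CPM in IGLL1-high (66 UMIs) and 1.27 CPM in CD8B+ cells (36 UMIs). None of the 162 GNLY-high cells of day 10 held a CD2 UMI, and after thinning 0 of 123 did, which allows a share of up to 2.44% at a floor of 3 cells (exact upper limit 2.95%). The highest CD2 level of the day 10 groups was that of HLA-DRA-high cells, 5.89 CPM, with a UMI in 2.60% (1.77 to 3.67) of thinned cells. The share was 1.89% in CD34+, 1.09% in IGLL1-high and 0.339% in CD8B+ cells, so that no group of day 10 had a higher CD2 share. Whether the level in HLA-DRA-high cells is a background was not tested. Barcodes of 10 to 100 UMIs, which hold almost no RNA, carried CD2 at 20.5 CPM (14.4 to 28.4) at day 10. In CD8B+ cells of day 14 the share of thinned cells with a CD2 UMI was 9.43% (8.71 to 10.2).

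CD5 was at 0.632 CPM in CD34+ (16 UMIs), 0.597 CPM in IGLL1-high (18 UMIs) and 0.544 CPM in HLA-DRA-high cells (11 UMIs) of day 10, levels that counting error did not separate. It reached 5.14 CPM (4.34 to 6.04) in CD8B+ cells of day 10, and 16.1 CPM in GNLY-high, 29.1 CPM in other and 33.6 CPM (32.6 to 34.7) in CD8B+ cells of day 14. The thinned share of CD8B+ cells with a CD5 UMI was 3.12% at day 10 and 15.8% at day 14. CD6, the neighbor of CD5 on chromosome 11, was below 2.8 CPM in every group of day 10. At day 14 it was at 7.03 CPM (6.57 to 7.52) in CD8B+, 7.68 CPM (6.48 to 9.03) in GNLY-high and 9.09 CPM (7.88 to 10.4) in other cells, and the first 2 did not differ beyond counting error.

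The first comparison asks how the genes differed between the days over all kept cells. A gene was called higher or lower when the log2 ratio of its CPM, with 5 CPM added to each level, passed 1.5-fold. Of the 9 genes 8 were higher at day 14, whereas 12.0% of the 8295 genes that reached 10 CPM at either day were called higher and 9.63% lower. CD6 did not reach 10 CPM, which leaves 7 of 8 on the same filter, and CD2 and CD5 reached it through day 14 alone. The median log2 ratio of the 8 genes at 10 CPM was 1.03, and that of all genes was -0.00. CD5 rose 14.0-fold (12.7 to 15.4) from 2.24 to 31.4 CPM, and CD2 9.37-fold (8.37 to 10.5) from 1.65 to 15.4 CPM. The CD5 log2 ratio of 2.33 lay above that of 99.6% of the genes. PTPRC (2.27-fold), LCP2 (2.22-fold), FYN (2.15-fold), ZAP70 (1.87-fold) and LCK (1.70-fold) rose by smaller steps, and CD6 by 3.22-fold from 2.27 CPM. LAT, at 376 and 439 CPM, stayed within the limit at 1.17-fold (1.15 to 1.18).

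The mixture of cells moved with the day. The 9 myeloid markers summed to 1723 CPM in all kept cells of day 10 and 193 CPM in those of day 14, and the NK cell markers to 619 and 3129 CPM. With the HLA-DRA-high cells left out 8 of 9 genes again passed the limit, beside 12.0% of 8239 genes higher and 9.42% lower, with log2 ratios of 0.63 for LCK, 0.72 for ZAP70, 1.26 for PTPRC and 0.10 for LAT, beside 0.75, 0.83, 1.17 and 0.22 over all cells. Without GNLY-high cells as well the count was 8, beside 11.0% of 8190 genes higher and 8.85% lower, with 0.91 for FYN and 0.98 for LCP2.

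Among CD8B+ cells of both days 6 of the 9 genes were higher at day 14, against 10.4% of 8129 genes called higher and 8.05% lower. Without CD6, which was under the 10 CPM that those genes reach, 5 of 8 were higher. CD2 and CD5 reached that level through day 14 alone. CD2 rose 14.6-fold (10.5 to 20.9), CD5 6.55-fold (5.55 to 7.78), CD6 2.70-fold (2.13 to 3.47), LCP2 2.19-fold, FYN 2.10-fold and PTPRC 1.93-fold. LCK (1.33-fold) and ZAP70 (1.35-fold) were above 1 beyond counting error but within the limit, and LAT was at 0.979-fold (0.960 to 0.998).

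In GNLY-high cells, of which day 10 held 162 with a median of 7151 UMIs against 10824 at day 14, the intervals were wide. Of the 9 genes 5 were called higher at day 14, where 8.27% of 8327 genes were higher and 9.13% lower. CD2 and CD6 were under the 10 CPM that those genes reach, and without them 3 of 7 were higher. CD5, among these, reached that level through day 14 alone. LCP2 rose 1.99-fold (1.65 to 2.42) and ZAP70 1.86-fold (1.41 to 2.50). CD5 rested on 2 UMIs at day 10, with a ratio of 11.6 (3.18 to 96.1), and CD6 on 4 UMIs, with 2.76 (1.05 to 10.2). CD2 was at 3.26 CPM at day 14 and at 0 UMIs at day 10, at least 1.56-fold higher against a floor of 3 UMIs for the group, while the exact interval of the ratio began at 1.23. LCK was at 0.995-fold (0.906 to 1.09), FYN at 1.19-fold and LAT at 0.809-fold. With the cells of highest doublet scores left out the count was 3. The make-up of the group also differed, since 480 of the 1519 cells of day 14 (31.6%) and 6 of the 162 of day 10 (3.70%) held a CD8B UMI. Without them 4 of 9 genes were called higher, beside 8.68% of 8319 genes higher and 10.7% lower. CD2, among the 4, was under 10 CPM, and CD5 reached that level through day 14 alone. CD5 was then at 12.9 and 0.743 CPM (146 UMIs and 1 UMI), CD2 at 2.64 CPM and 0 UMIs, LCP2 at 2.02-fold (1.66 to 2.48) and ZAP70 at 1.83-fold (1.37 to 2.50).

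**Figure D2:**
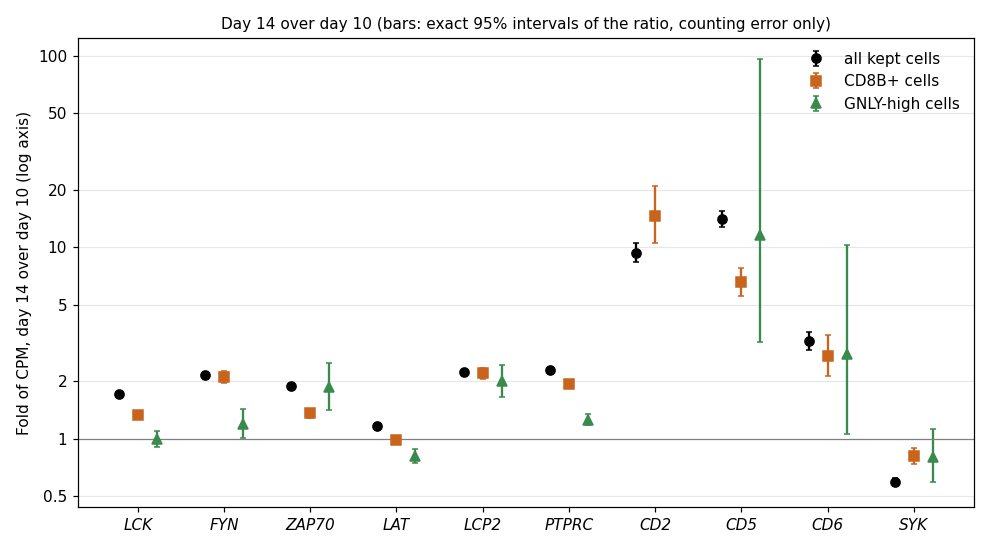
Fold of CPM at day 14 over day 10 (log axis) for the 9 genes and SYK in all kept cells (black circles), CD8B+ cells (orange squares) and GNLY-high cells (green triangles), with exact 95% intervals as bars and a line at 1. CD5 and CD2 stand highest at 14.0- and 9.37-fold over all cells. LAT lies above 1 over all kept cells and below 1 in CD8B+ and GNLY-high cells. The SYK points lie below 1, with an interval that includes 1 in GNLY-high cells (0.805-fold, 0.593 to 1.12). No CD2 point is drawn for GNLY-high cells because day 10 had 0 UMIs.

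The next comparisons follow the order of groups within day 10, with cells in both groups left out. Between 1001 IGLL1-high and 786 CD34+ cells 3 of the 9 genes were called higher, LCK at 1.90-fold (1.79 to 2.02), ZAP70 at 1.91-fold (1.64 to 2.23) and LAT at 1.60-fold (1.52 to 1.68), where 2.28% of 8027 genes were higher and 5.43% lower. LCP2 was at 0.680-fold (0.619 to 0.748), FYN at 0.788-fold and PTPRC at 0.764-fold, all below 1 beyond counting error but within the limit. ZAP70 did not pass with IGLL1-high set at 4000 CPM (log2 ratio 0.15) or with 20 CPM added (0.47), and LAT did not pass with median ratio scaling (0.53). LCP2 passed as lower in 2 of these settings, with IGLL1-high at 4000 CPM (-0.71) and with median ratio scaling (-0.62).

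Between 1394 CD8B+ and 1398 IGLL1-high cells 5 of 9 were higher, beside 3.95% of 7869 genes higher and 3.30% lower. Over the genes at 10 CPM, to which CD5 does not belong, 4 of 6 were higher. ZAP70 was 2.72-fold (2.47 to 2.99), LAT 2.68-fold (2.59 to 2.77), PTPRC 2.58-fold (2.46 to 2.71) and LCK 2.09-fold (2.01 to 2.17) higher. CD5 was higher by 11.6-fold (6.55 to 22.3), from 13 to 141 UMIs. LCP2 was at 0.794-fold (0.732 to 0.861), and CD2 at 0.551-fold on 32 and 62 UMIs. PTPRC joined the climb only at this step, while LCK, ZAP70 and LAT were called at both steps. A test of the difference between the steps was not possible with 1 library.

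From IGLL1-high cells of day 10 to CD8B+ cells of day 14 all 9 genes were called higher, beside 14.8% of 8341 genes called higher and 13.1% lower. CD6 was under 10 CPM, and the 8 genes at that level were all higher. CD2 and CD5 reached it through CD8B+ cells of day 14 alone. The folds ran from 1.76 for LCP2 to 72.0 (42.0 to 135) for CD5, with 4.76 for PTPRC, 3.55 for ZAP70, 2.71 for LCK and 2.52 for LAT. CD5 rested on 13 UMIs in the IGLL1-high cells. Day and group differ together in this comparison and cannot be told apart.

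ZAP70 was set beside SYK, the kinase that takes the ZAP70 role in B cells and myeloid cells and is also found in early thymocytes. From CD34+ over IGLL1-high to CD8B+ cells of day 10 and of day 14, ZAP70 went up and SYK down. The first SYK step, IGLL1-high over CD34+ cells, was within counting error (0.892-fold, 0.790 to 1.01). The remaining groups did not all keep this opposite order. At day 14 both genes were lower in other cells (67.4 and 13.2 CPM) than in CD8B+ cells (78.2 and 15.6 CPM). The ratio of ZAP70 to SYK UMIs was 0.381 (0.336 to 0.432) in CD34+, 0.699 (0.634 to 0.771) in IGLL1-high and 3.02 (2.74 to 3.33) in CD8B+ cells of day 10, and 5.02 (4.77 to 5.27) in CD8B+ cells of day 14. In GNLY-high cells it was 1.18 (0.777 to 1.79) and 2.72 (2.45 to 3.03), and in HLA-DRA-high cells 0.0875. SYK itself stood at 35.9 CPM in CD34+ and 15.6 CPM in CD8B+ cells of day 14, and was lower at day 14 over all cells (0.592-fold, 0.565 to 0.621). The ratio of LCK to FYN UMIs was 3.06 in CD34+, 5.84 in IGLL1-high and 10.0 (9.32 to 10.7) in CD8B+ cells of day 10, but 6.33 (6.18 to 6.49) in CD8B+ cells of day 14, where FYN had risen more than LCK. GNLY-high cells were at 3.54 and 2.95. These ratios compare groups for the same pair of genes and do not compare the levels of different genes.

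**Figure D3:**
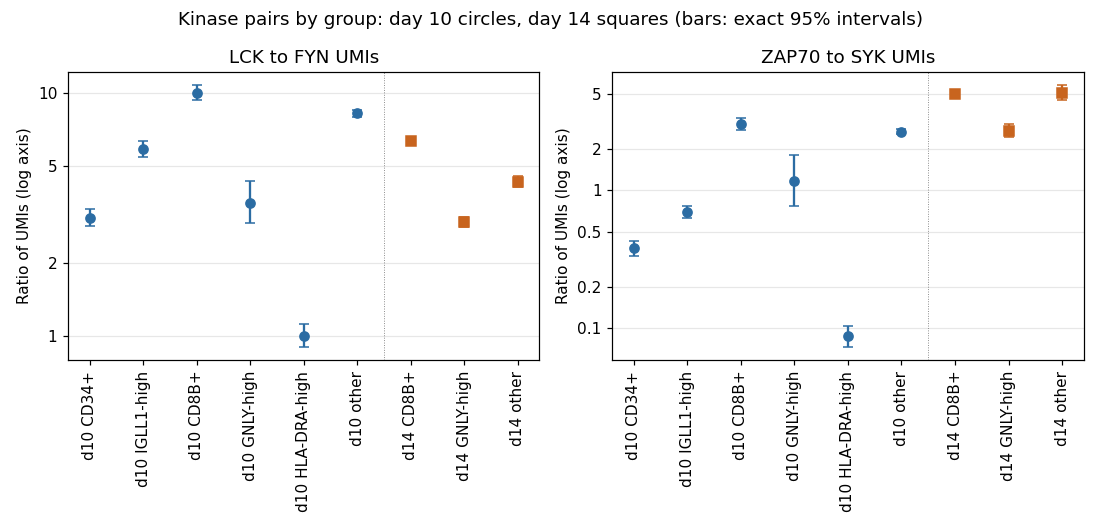
Ratio of LCK to FYN UMIs (left) and of ZAP70 to SYK UMIs (right) on log axes, in 6 groups of day 10 (circles) and 3 groups of day 14 (squares), with exact 95% intervals as bars. The ZAP70 to SYK ratio climbs from 0.381 in CD34+ cells to 5.02 in CD8B+ cells of day 14, and the LCK to FYN ratio is highest, at 10.0, in CD8B+ cells of day 10.

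Within day 14, 1039 GNLY-high cells without CD8B UMIs were compared with 5912 CD8B+ cells that were not GNLY-high. PTPRC (2.35-fold, 2.30 to 2.40), FYN (1.98-fold, 1.87 to 2.10) and LCP2 (1.91-fold, 1.82 to 2.01) were higher, and CD2 (0.136-fold, 0.0915 to 0.195) and CD5 (0.373-fold, 0.314 to 0.440) lower, which is 3 and 2 of the 9 genes beside 11.0% and 10.0% of 8309 genes. LCK (0.809-fold), ZAP70 (0.846-fold), LAT (0.692-fold) and CD6 (0.972-fold) stayed within the limit. CD2 reached 10 CPM through the CD8B+ cells alone, and CD6 did not reach it. The median depth was 9813 UMIs in GNLY-high and 16969.5 in CD8B+ cells. At day 10, with 156 and 1490 cells, the log2 ratios were 1.52 for FYN, 1.69 for PTPRC and 0.90 for LCP2, beside 0.93, 1.22 and 0.89 at day 14. FYN, PTPRC and LCP2 were thus past the limit over CD8B+ cells in the same direction in each library. For all GNLY-high cells over other cells the log2 ratios were 1.37, 1.59 and 0.85 at day 10. At day 14 they were 0.47, 0.46 and 0.26, within the limit.

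Inside the CD8B+ cells of day 14 that were not GNLY-high, CD2 was the gene that differed most. In 1521 RAG1-high cells (at least 3 UMIs of the recombinase gene RAG1) CD2 was at 38.5 CPM, and in 2999 cells with no RAG1 UMI at 9.01 CPM, a ratio of 4.27 (3.84 to 4.75). LCP2 was lower, at 63.5 against 102 CPM (0.625-fold, 0.591 to 0.660), and the other 7 genes were within the limit, so that 1 of 9 was higher and 1 lower beside 3.68% and 3.69% of 8048 genes. CD2 reached 10 CPM through the RAG1-high cells alone. LAT was at 0.700-fold and PTPRC at 0.754-fold, while CD5 was at 1.21-fold and LCK at 1.18-fold. The RAG1-high cells were the shallower of the pair, with a median of 15263 UMIs against 17837. They also held more PTCRA, the pre-TCR alpha chain gene (446 against 94.9 CPM), and CD4 (49.8 against 10.3 CPM).

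Cells with a UMI of TRAC, the constant gene of the TCR alpha chain, and none of PTCRA (847 cells) were set beside cells with the reverse (3217 cells). PTPRC was 1.98-fold (1.93 to 2.03) and LCP2 1.90-fold (1.80 to 2.00) higher in the TRAC cells, and CD2 was at 0.371-fold (0.312 to 0.438), 9.23 against 24.9 CPM. That made 2 of 9 higher and 1 lower, beside 5.59% and 3.45% of 8091 genes. CD2 reached 10 CPM through the PTCRA cells alone. LAT (1.44-fold), CD6 (1.46-fold) and CD5 (1.30-fold) were above 1 beyond counting error but within the limit, and LCK (0.818-fold) and ZAP70 (0.870-fold) were below 1. The RAG1 and TRAC comparisons draw on the same cells and are not independent of each other.

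Between 2630 cells with 10 mitotic genes at 1000 CPM or more in sum and 3282 other CD8B+ cells of day 14 none of the 9 genes passed the limit, beside 5.24% of 8030 genes higher and 1.42% lower. LCP2 (0.742-fold, 0.713 to 0.773), CD2 (0.666-fold, 0.611 to 0.725) and CD6 (0.678-fold, 0.586 to 0.783) were below 1, and the other 6 genes ranged from 0.888-fold for PTPRC to 1.10-fold for ZAP70. The median depth was 21008.5 and 14209 UMIs.

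**Figure D4:**
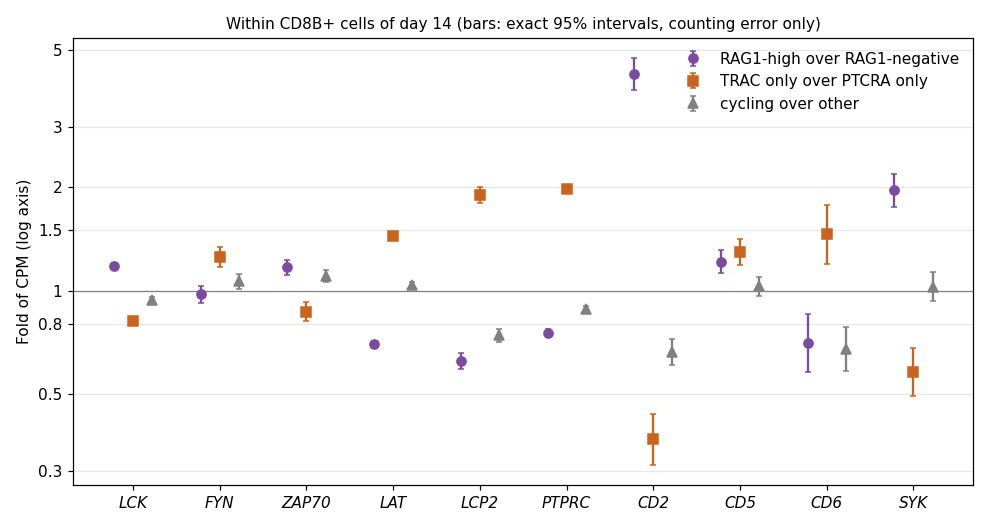
Fold of CPM (log axis) of the 9 genes and SYK within CD8B+ cells of day 14, for RAG1-high over RAG1-negative cells (circles), TRAC only over PTCRA only cells (squares) and cycling over other cells (triangles), with exact 95% intervals as bars. CD2 stands at 4.27-fold in RAG1-high and 0.371-fold in TRAC only cells, PTPRC and LCP2 take the opposite sides, and the cycling points lie between 0.666- and 1.10-fold.

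The genes were also counted together within cells. In cells thinned to 5000 UMIs a mean of 1.44 (SD over cells 1.12) of the 9 genes was found per CD34+ cell, 1.71 (1.09) per IGLL1-high cell and 2.78 (1.09) per CD8B+ cell of day 10, against 3.66 (1.24) per CD8B+ and 3.86 (1.11) per GNLY-high cell of day 14. HLA-DRA-high cells held 1.36, largely through PTPRC, of which 77.6% had a UMI. Other cells held a mean of 2.70 at day 10 and 3.81 at day 14, near the CD8B+ cells of each day. UMIs of LCK, ZAP70, LAT and LCP2 in the same cell were found in 0.236% (0.0487 to 0.688) of CD34+, 0.476% (0.192 to 0.979) of IGLL1-high and 2.44% (1.71 to 3.36) of CD8B+ cells of day 10, and in 8.16% (7.49 to 8.87) of CD8B+ cells of day 14. Other cells were alike, with 2.53% (2.18 to 2.93) at day 10 and 8.87% (7.43 to 10.5) at day 14. GNLY-high cells of day 14 were at 8.09% (6.72 to 9.64). Without thinning the share in CD8B+ cells of day 14 was 48.2%, so these shares state what was seen at a fixed depth and not which cells expressed the genes.

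**Figure D5:**
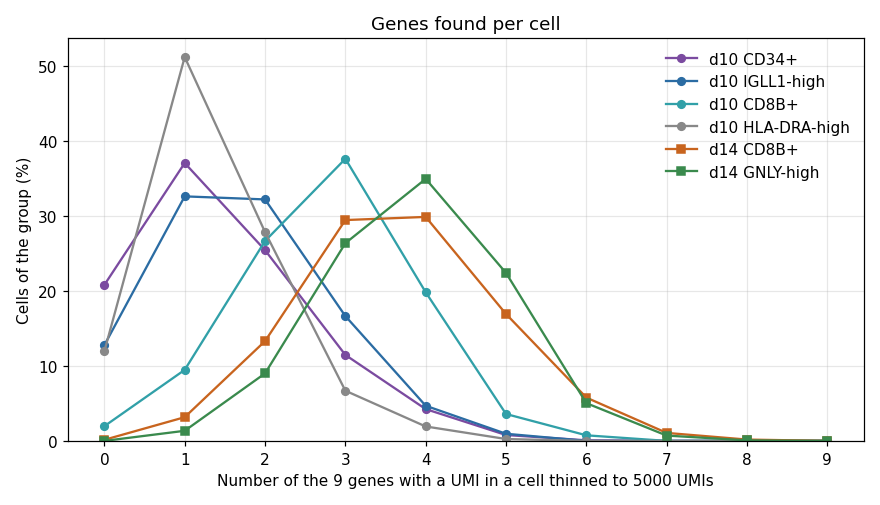
Share of cells (%) by the number of the 9 genes with a UMI in a cell thinned to 5000 UMIs, for 4 groups of day 10 (circles) and 2 groups of day 14 (squares). The curves move to the right from CD34+ cells, with a mean of 1.44, over CD8B+ cells of day 10, with 2.78, to CD8B+ and GNLY-high cells of day 14, with 3.66 and 3.86. Other cells, with means of 2.70 at day 10 and 3.81 at day 14, are not drawn.

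The rest of the pathway was read from 5 lists that had been drawn up with earlier results of these data known. Over all kept cells 12.0% of 8295 genes were higher at day 14 and 9.63% lower, and the list counts stand beside these shares. Of receptor chains and coreceptors at 10 CPM, 10 of 12 were higher at day 14 and 0 lower (median log2 ratio 1.22), led by CD8B and CD8A. TRBC1 rose from 111 to 467 CPM, but TRBC1 and TRBC2 are nearly identical in sequence, and PTCRA rose from 43.2 to 173 CPM. Among downstream genes 10 of 17 were higher and 0 lower (median 0.77), with THEMIS, a regulator of thymocyte selection, at 17.5 and 110 CPM, RASGRP1, the Ras activator, at 26.2 and 111 CPM and SKAP1 at 20.5 and 81.0 CPM. Negative regulators behaved alike, with 9 of 15 higher and 0 lower (median 0.74), among them UBASH3A (4.21 and 21.1 CPM), the adaptor SIT1 (40.3 and 113 CPM), DOK2 and the ubiquitin ligase CBLB. Binding partners of the surface receptors had 2 of 6 higher and 0 lower (median 0.49), CD48 and PSTPIP1.

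The counterparts of these genes outside T cells were divided. Of 6 at 10 CPM, 4 were lower and 2 higher at day 14 (median -0.75), beside 9.63% of 8295 genes lower and 12.0% higher. BTK, the B cell and myeloid kinase, went from 17.5 to 1.62 CPM and LYN from 41.4 to 17.5 CPM, while the Src-family kinases BLK (10.9 to 41.8 CPM) and FGR (4.06 to 19.97 CPM) rose. Between CD8B+ cells of the days, where the myeloid markers summed to 306 and 96.8 CPM, 4 of these genes were at 10 CPM, and LYN was lower, BLK and FGR were higher and SYK stayed within the limit at 0.814-fold (median 0.48). Between CD8B+ and IGLL1-high cells of day 10, where the myeloid markers summed to 306 and 239 CPM, SYK, LYN, BTK and LAT2 were likewise lower and BLK higher, 4 and 1 of 5. Of all genes, 10.4% of 8129 were higher and 8.05% lower between CD8B+ cells of the days. Between CD8B+ and IGLL1-high cells of day 10, 3.95% of 7869 were higher and 3.30% lower.

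The patterns were compared over the 9 group levels, each a sum within 1 of the libraries, so that the points share library, depth and cells. Over these levels LCK, ZAP70 and LAT were near each other (Pearson r of log2 levels 0.974 for LCK and LAT, 0.957 for LCK and ZAP70, and 0.940 for ZAP70 and LAT), as were FYN and PTPRC (0.918) and CD5 and CD6 (0.944), whereas LCK and FYN had r = 0.555. CD2 was unlike the other 8 genes, with no r above 0.653. Among 3906 genes that reached 50 CPM in some group, those most like LCK were RRAS2 (0.994), CD247 (0.988) and SMC4 (0.986), and CD247, the CD3 zeta chain gene, was also among those most like LAT (0.987), with CARHSP1 (0.989) and RRAS2 (0.981). ZAP70 was most like BCL2L11, MNAT1 and CAMK4, FYN most like IL18R1, PPP1R18 and FCMR, LCP2 most like CARD8, FNIP1 and TLE4, and PTPRC most like PFN1, CISD3 and GLG1. For CD2 these were CAPG (0.944), TPI1 and FAM162A, for CD5 NDUFB3, COX6C and PCBP2, and for CD6 MITD1, MRPL33 and SON. All these genes were picked from 3906 for their r over 9 levels, so that a high r comes with the choice. CD6 at day 10 ran only from 0.693 to 2.79 CPM, under the 5 CPM added before the log, so its r rests mostly on the levels of day 14.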

How the data were processed

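The deposited files hold raw, unfiltered UMI counts per barcode that the authors made with Cell Ranger 4.0.0 on GRCh38. The annotation release was not given in the sources used here. The study's methods give the mitochondrial limit and limits on detected transcripts, which were read as detected genes. UMI counts were added up within each group in Python 3.11.15 (numpy 2.4.6, scipy 1.17.1, pandas 2.3.3, anndata 0.12.19, scanpy 1.11.5) and scaled to CPM, with Poisson intervals (exact). Folds carry exact conditional binomial intervals and no pseudocount, shares exact binomial intervals, and calls used log2 ratios with 5 CPM added. Cells are not replicates, and with 1 library per day no test was run. For thinning, 291 and 382 cells below 5000 UMIs were left out. Doublets were kept. The automatic Scrublet threshold marked 512 and 0 cells, so an alternative left out the 1174 and 638 highest scores. Kept barcodes held 96.3% and 90.7% of 217681173 and 169758367 UMIs. The genes, groups and lists were chosen with earlier results of these data known. Named were the 9 genes, SYK, up to 4 genes per list with the largest day ratio, the group-defining genes, and the 3 genes most like each of the 9. A gene that this rule names is not reported here. LAT2, PTCRA and CD4 were named in other comparisons after their values were seen. The ratio step was tested on simulated data.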

Additional observations from a re-analysis of the deposited data

Results flagged for a closer look

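CD2 at day 10 was flagged because barcodes that hold almost no RNA, those of 10 to 100 UMIs, which the comparisons do not use, carried it at a higher level than the kept cells. These barcodes held 36 CD2 UMIs, or 20.5 CPM (14.4 to 28.4), against 1.65 CPM in kept cells, a ratio of 12.5. At day 14 the same class of barcodes had 17.9 CPM (13.9 to 22.8) of CD2, against 15.4 CPM in kept cells. For LCK the day 10 levels were 231 and 228 CPM, for PTPRC 158 and 213 CPM, and for CD5 1.71 CPM (3 UMIs) and 2.24 CPM. The source of the CD2 UMIs outside cells was not tested.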

How the results depend on the processing

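No paired analysis was possible because each day is 1 library and the labels give no replicate numbers. Over 18 settings 1080 ratios of the 9 genes were recomputed. Of these 1055 stayed on their side of 1.5-fold, 25 moved to the other side and 0 reversed. By value, 839 were counted as within their interval and 241 as moved. Among the 25, FYN and PTPRC passed between GNLY-high cells of the days with GNLY-high at 1000 CPM (log2 ratio 0.62 each). For CD8B+ over IGLL1-high cells of day 10, FYN passed with IGLL1-high at 4000 CPM (0.68), and CD5 did not with 20 CPM added (0.31). LAT passed as lower in RAG1-high cells after thinning (-0.61). The count of genes past 1.5-fold between GNLY-high cells of the days was 3 in place of 5 without the highest doublet scores and with 20 CPM added. That between RAG1-high and RAG1-negative cells was 1 in place of 2 with 20 CPM added and with CD8B+ set at 3 UMIs, where LCP2 stood at log2 ratios of -0.54 and -0.52, and that between cycling and other cells was 1 in place of 0 with a mean of shares over cells (CD2, -0.65). With 20 CPM added CD6 did not pass in any of the 4 comparisons in which it had been called (0.26 to 0.31). The settings added after seeing the data left HLA-DRA-high cells out of the other comparisons and CD8B+ cells out of the GNLY-high cells.

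Without thinning the share of cells with a UMI at day 10 and day 14 was 80.8% and 97.1% for LCK, 39.8% and 60.9% for FYN, 41.5% and 64.6% for ZAP70, 81.5% and 94.8% for LAT, 47.1% and 69.9% for LCP2, 86.9% and 96.8% for PTPRC, 2.38% and 15.5% for CD2, 3.22% and 34.2% for CD5 and 3.70% and 10.8% for CD6. The mean number of the 9 genes per cell was 3.87 and 5.45 without thinning and 2.96 and 4.43 at 8000 UMIs, beside 2.38 and 3.70 at 5000. With no filter on low levels 5.96% of all genes were past 1.5-fold between the days. Depth limits CD2, CD5 and CD6 most, since some of their levels rest on under 20 UMIs.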

Other observations

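Cells in none of the groups differed little from CD8B+ cells at day 10, where the log2 ratio of CD8B+ over other cells lay between -0.13 for FYN and 0.45 for CD5. At day 14 CD2 was at 18.5 CPM in CD8B+ and 5.59 CPM in other cells (log2 ratio 1.15), and PTPRC was lower in CD8B+ than in other cells by log2 -0.58. ZAP70 in barcodes of 10 to 100 UMIs of day 14 was at 96.2 CPM (86.4 to 107), against 75.6 CPM in kept cells, while FYN (72.3 against 69.9 CPM) and LCP2 (100.5 against 99.5 CPM) were at like levels in both.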
